A study of Homo sapiens with 27 samples.

Results

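Translational efficiency was compared between human fibroblasts made senescent by ionizing radiation and by etoposide. The members were the 12 libraries of these cells among the 27 of the series, 3 of RNA-seq and 3 of ribosome profiling (Ribo-seq) for each inducer. They were chosen by inducer and library type. Of 19320 protein-coding genes in both gene lists, 12653 passed the filter on low counts and were tested. The cells were IMR90, a normal lung fibroblast line from a human fetus, labelled wild type and grown in the same serum medium with high glucose. Irradiated cells received 15 Gy and were collected after 10 days. Etoposide cells received 50 µM etoposide, a topoisomerase II poison that breaks DNA, in 3 treatments over 10 days. The other libraries were of cycling, quiescent and thapsigargin-treated cells.

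In Ribo-seq a lysate is digested with RNase and the stretches shielded by ribosomes, the footprints, are sequenced, while RNA-seq of the same kind of lysate measures the mRNA. The ratio of footprints to mRNA is called translational efficiency, TE. It moves when more or fewer ribosomes sit on an average copy of an mRNA, and it does not tell faster initiation from slower elongation. Senescent fibroblasts have left the cell cycle for good and secrete cytokines, growth factors and matrix proteins, the senescence-associated secretory phenotype. Secreted and membrane proteins are made by ribosomes docked at the endoplasmic reticulum. Stress kinases acting on the initiation factor eIF2 lower general initiation, while some mRNAs with upstream reading frames, such as that of ATF4, escape. The mTOR pathway acts on another class of mRNA, which begins with a run of pyrimidines and encodes ribosomal proteins and elongation factors.

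Gene counts per library, in units of 1e6, were 28.9 to 30.0 for RNA-seq of irradiated cells and 31.8 to 41.4 for RNA-seq of etoposide cells. Footprint libraries held 2.65 to 5.56 of these units after irradiation and 6.16 to 6.98 after etoposide, so the irradiated footprints carried the largest counting error. All 10 fibroblast markers were at 1 CPM (a count scaled to 1e6 per library) or more in each of the 4 groups, and their summed RNA level was 9775 to 10253 CPM after irradiation and 9337 to 10623 CPM after etoposide. None of the 9 epithelial markers reached a mean of 1 CPM in RNA-seq, nor did any of the 8 leukocyte markers. Of 7 endothelial markers, 2 reached it in RNA-seq. Their sum was 33.1 to 36.4 CPM after irradiation and 56.7 to 89.7 CPM after etoposide, and its part in the results was not tested.

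TE differed between the inducers for 331 of 12653 genes at an adjusted p under 0.05 (edgeR quasi-likelihood F test, Benjamini-Hochberg adjustment over all genes tested), which is 2.62% of them. It was higher after irradiation for 110 genes (0.869%) and lower for 221 (1.75%). In all, 2259 genes had an unadjusted p under 0.05. A median gene lay at a TE difference of 0.10 (log2, irradiated minus etoposide), and the 5th and 95th percentiles were -0.79 and 0.64. Named genes lower after irradiation included the cadherin FAT1, the secreted factor INHBA, the matrix proteins HSPG2, VCAN and LAMB1, and the receptor EGFR, which was picked after its values were seen. Named genes higher after irradiation included the histone H3C10, the splicing protein SNRPG and the respiratory chain subunit NDUFA1 and the stress regulator ATF4.

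How the libraries were scaled changed the 2 directions unequally. Under DESeq2 with its own size factors 79 genes were called higher and 406 lower. With those factors in the edgeR fit the numbers were 35 and 322, and with TMM factors computed within each library type they were 23 and 429. Centring the median gene at 0, a setting added after the data were seen, gave 32 higher (0.253%) and 364 lower (2.88%). Of the 221 genes called lower, 219 were called under all 4 of these scalings. Of the 110 called higher, 23 were called under all 4 and 36 under none. When all 5 states and 27 libraries shared 1 fit, edgeR called 0 genes, with 747 at an unadjusted p under 0.05 and a smallest adjusted p of 0.207; DESeq2 was not run on that fit. All 221 lower and all 110 higher genes kept their sign there, and 168 and 106 of them had an unadjusted p under 0.05. The calls use the spread among these 12 libraries, for which the common biological coefficient of variation was 0.102.

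**Figure D1:**
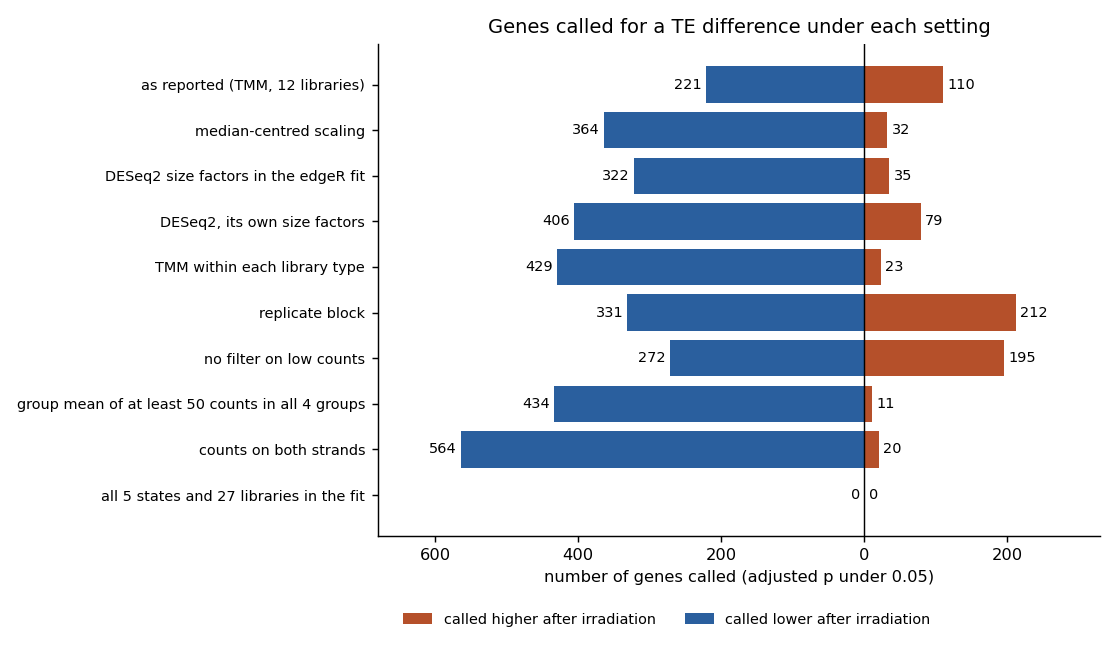
Number of genes called for a TE difference (adjusted p under 0.05) under each setting; bars to the right count genes higher after irradiation and bars to the left genes lower after irradiation. The count of higher genes falls from 110 to between 23 and 79 under the 4 other scalings while that of lower genes rises from 221 to between 322 and 429, and the fit of all 27 libraries calls 0.

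The lower genes mostly had less mRNA after irradiation and still fewer footprints. For 166 of the 221, both mRNA and footprints were called lower in the same fit. Another 48 had fewer footprints with no call on mRNA, 3 had a call on mRNA alone, and in 4 the 2 went in opposite directions. Their median difference was -0.60 for mRNA, -1.43 for footprints and -0.81 for TE, and 59 of them differed at least 2-fold in TE. The higher genes had another make-up. For 80 of the 110 the footprints were called with no call on mRNA, 8 had both called higher, 14 had a call on mRNA alone, and the median difference was -0.07 for mRNA, 0.59 for footprints and 0.61 for TE. Over all genes tested, mRNA was called for 36.6% and footprints for 40.1%; both were called lower for 14.8% and both higher for 10.5%, and footprints without mRNA for 14.7%. For each inducer, 3 footprint and 3 RNA-seq libraries allow 9 ratios. Those of irradiated cells lay all below those of etoposide cells for 215 of the 221 lower genes, against 527 of all 12653 genes (4.17%). They lay all above them for 102 of the 110 higher genes, against 718 of all 12653 (5.67%). Levels of mRNA and footprints are the terms of the ratio that chose the genes, so the figures describe the calls and do not test them.

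**Figure D2:**
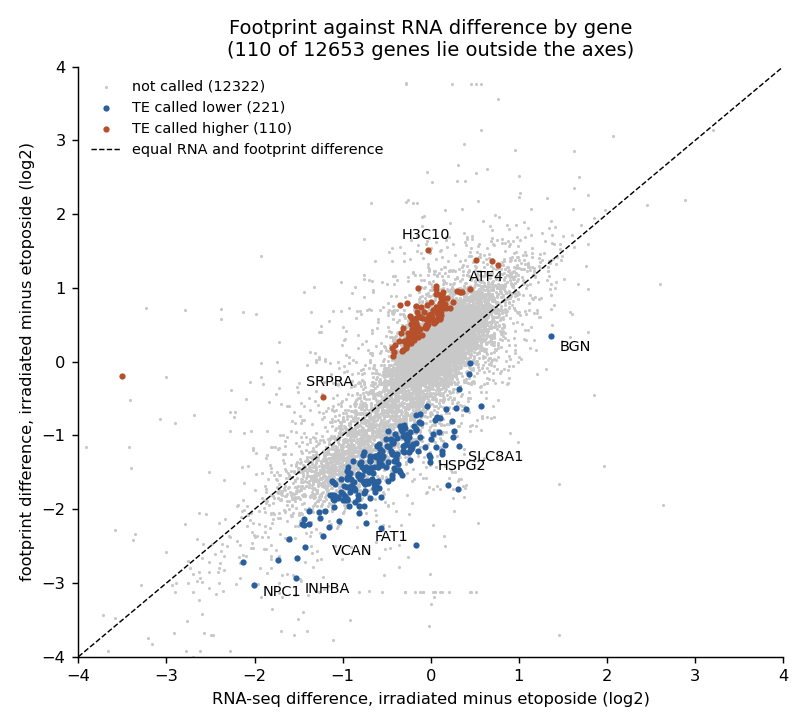
Each point is a gene, with its mRNA difference on the x axis and its footprint difference on the y axis (log2, irradiated minus etoposide). Genes called lower in TE (221, blue) lie below the dashed line of equal difference and mostly at negative mRNA values, while genes called higher (110, orange) lie above it around an mRNA difference of 0; 110 of 12653 genes lie outside the axes.

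FAT1 (ENSG00000083857, chr4:186587794-186726696 in RefSeq's GRCh38.p14), an atypical cadherin of the cell surface, had the smallest adjusted p. Its mRNA was at 764, 754 and 766 CPM in irradiated replicates 1 to 3 and at 1313, 1246 and 1233 CPM in etoposide replicates. Its footprints were at 203, 245 and 171 CPM after irradiation and at 1000.0, 911 and 890.1 CPM after etoposide. Both readouts were thus lower in every irradiated library, and the footprints by more. The TE difference was -1.45 ± 0.15 (log2 ± SE, n = 3 libraries a group, edgeR adjusted p = 1.13e-05).

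INHBA (ENSG00000122641, on chromosome 7), the subunit of activin A and a secreted member of the TGF-beta family, followed the same course. Its mRNA stood at 70.6, 66.7 and 76.7 CPM after irradiation against 192, 215 and 210.3 CPM after etoposide. Footprints stood at 22.2, 23.8 and 30.4 CPM against 191, 201 and 189 CPM, with no overlap between inducers in either readout. TE differed by -1.41 ± 0.15 (edgeR adjusted p = 1.45e-05).

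For HSPG2 (ENSG00000142798, on chromosome 1), which encodes perlecan, the heparan sulfate proteoglycan of basement membranes, mRNA overlapped between inducers. It was at 40.5, 40.7 and 44.5 CPM after irradiation and 38.5, 41.4 and 47.7 CPM after etoposide. Footprints were at 49.6, 70.7 and 53.6 CPM and at 134, 143 and 136 CPM, so the difference lay in the footprints. TE differed by -1.25 ± 0.16 (edgeR adjusted p = 0.000277).

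The sodium-calcium exchanger SLC8A1 had slightly more mRNA after irradiation (0.32, log2) and fewer footprints (-1.14), for a TE difference of -1.46. The folate carrier SLC19A1 (-1.69) and the potassium channel KCNN2 (-1.34) were also among the 12 largest negative differences. The ephrin receptor EPHB4 (-1.27), the TGF-beta binding membrane protein VASN (-1.27), the membrane kinase LMTK2 (-1.38), the lysosomal mannosidase MAN2B1 (-1.28) and PRKCSH (-1.28), a subunit of the glucosidase that trims glycans in the endoplasmic reticulum, were others. All 12 were called under each of the 4 other scalings. Leaving out each of the 12 libraries in turn kept the calls on 9 of them in every such fit, and those on SLC19A1 in 8, KCNN2 in 9 and PRKCSH in 7 of the 12 fits.

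**Figure D3:**
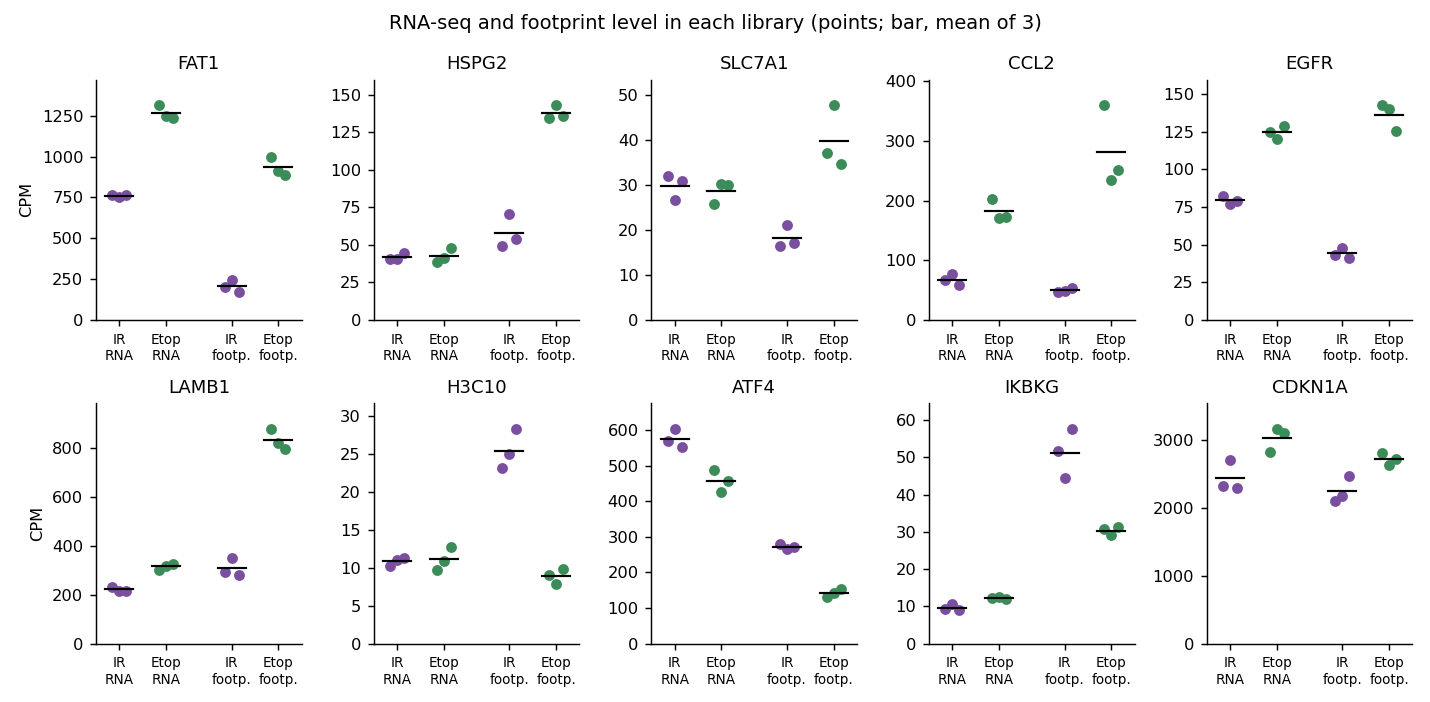
Level of 10 genes in each library (CPM on a linear axis starting at 0; purple points, irradiated, IR; green points, etoposide, Etop; black bars, means of 3), with RNA-seq on the left and footprints on the right of each panel. Footprints of FAT1, HSPG2, SLC7A1, CCL2, EGFR and LAMB1 are lower in all 3 irradiated libraries, those of H3C10, ATF4 and IKBKG are higher in all 3, and CDKN1A was not called in TE.

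Matrix glycoproteins, proteoglycans and cross-linking enzymes were the fixed list with the largest share called. Of 48 tested, 13 were lower after irradiation (27.1%, against 1.75% of all genes) and 0 higher, with a median of -0.41, and 46 of the 48 lay below the median gene. Besides HSPG2 they included VCAN, the proteoglycan versican (-1.14 ± 0.16), the laminin chain LAMB1 (-0.92 ± 0.13), the integrin-binding matrix protein TGFBI (-0.75 ± 0.12) and fibronectin FN1 (-0.61 ± 0.14), all past the edgeR threshold. LAMB1 footprints were at 295, 351 and 283 CPM after irradiation and at 878, 823 and 796 CPM after etoposide. LAMB1 mRNA was at 234, 216 and 217 CPM and at 302, 319.8 and 327 CPM, a far smaller gap. FN1 was called in 9 of the 12 fits that left out a library. Thrombospondin THBS1 (-0.44, edgeR adjusted p = 0.15) was not called.

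BGN, which encodes the small proteoglycan biglycan and was picked after its values were seen, reached a lower TE by another route. Its mRNA was higher after irradiation, at 34.9, 24.3 and 31.7 CPM against 9.58, 9.80 and 15.8 CPM. Its footprints were at 146, 172 and 153 CPM against 119, 109.9 and 141 CPM, with no call on the footprint difference of 0.34. TE differed by -1.02 ± 0.25 (edgeR adjusted p = 0.0493), the ratios of single libraries overlapped between inducers, and the call was kept in 6 of the 12 fits without a library.

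Collagens leaned the same way with fewer calls. Of 24 tested, 1 was called lower (4.17%, against 1.75% of all genes), COL5A1 of the minor fibrillar collagen V. Its TE difference was -0.88 ± 0.14 (edgeR adjusted p = 0.00133), with no mRNA difference past the threshold. The list median was -0.36, and 20 of the 24 lay below the median gene. The main chains of collagens I and III were not called: COL1A1 at -0.65 (SE 0.32), COL1A2 at -0.23 (SE 0.15) and COL3A1 at -0.08 (SE 0.16).

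Among 50 tested genes of the senescence-associated secretory phenotype, 5 were lower (10.0%, against 1.75% of all genes) and 0 higher. Their median was -0.33, and 43 of 50 lay below the median gene. CCL2 (-1.08 ± 0.20, edgeR adjusted p = 0.00986) is the chemokine that draws monocytes. Its mRNA was at 66.8, 76.8 and 59.5 CPM after irradiation and at 203, 171 and 172 CPM after etoposide, and its footprints at 46.8, 48.1 and 54.2 CPM and at 359.8, 234 and 251 CPM. Hepatocyte growth factor HGF (-0.96 ± 0.17) and TNFRSF11B, the decoy receptor osteoprotegerin (-0.66 ± 0.14), were also called lower, each with less mRNA as well.

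Several other secretory genes differed in mRNA and were not called in TE. The matrix protease MMP3 had mRNA at 0.47, 0.48 and 0.78 CPM after irradiation and at 129, 51.3 and 53.1 CPM after etoposide, and its footprints were at 0.56, 0.78 and 1.81 CPM and at 239, 100.0 and 112 CPM. Its TE difference was -0.18 with an SE of 1.90, so it was not resolved. The chemokine CXCL8 (-0.94, SE 1.01), the cytokine IL6 (-1.18, SE 0.48) and complement C3 (-0.40, SE 0.66) had wide errors too. Tighter values came from the protease inhibitor TIMP1 (-0.05, SE 0.14), whose mRNA difference was -1.73, and from the binding protein IGFBP5 (-0.15, SE 0.15). GDF15 (-0.32, SE 0.16) and IGFBP3 (-0.23, SE 0.29) lay between. In the other direction FMO2, a monooxygenase, had mRNA higher after irradiation by 3.20 and footprints by 3.13, and a TE difference of -0.07 (SE 0.34), while the alcohol dehydrogenase ADH1B stood at 0.16 (SE 0.90).

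**Figure D4:**
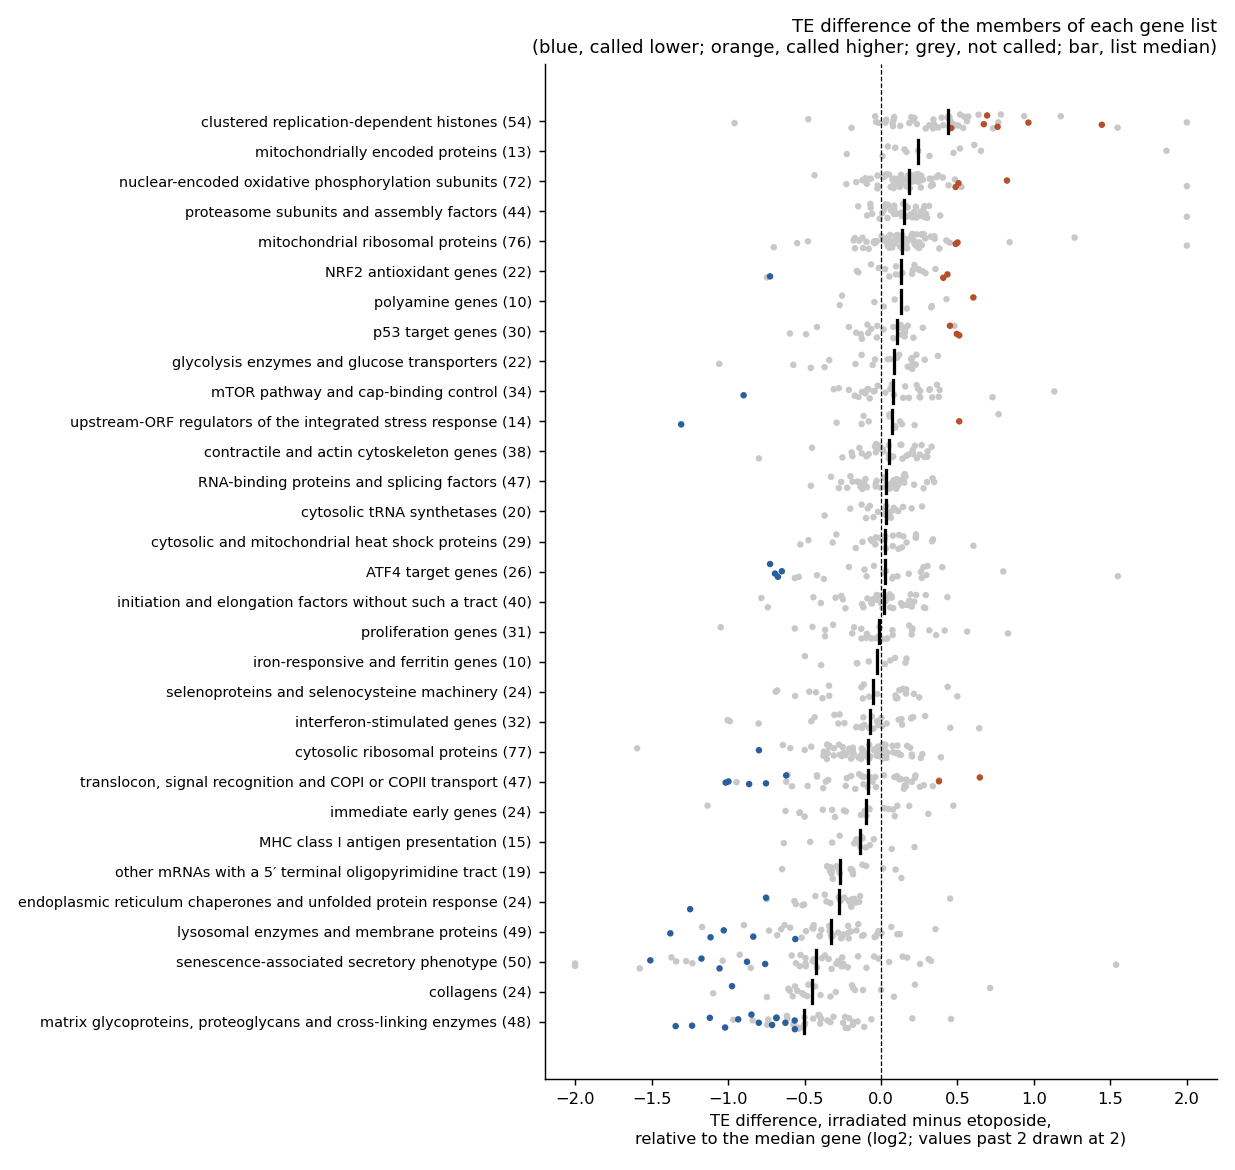
TE difference of every tested member of fixed gene lists (log2, irradiated minus etoposide, relative to the median gene, number tested in brackets), ordered by the list median (black bar). Matrix glycoproteins, collagens and secretory genes lie lowest, with 13, 1 and 5 members called lower (blue), and clustered histones lie highest, with 6 called higher (orange).

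Calls among the genes that make and handle secreted proteins were mostly in the lower direction. Of 24 endoplasmic reticulum chaperones and unfolded protein response genes, 2 were called lower (8.33%, against 1.75% of all genes). They were CANX, the lectin chaperone calnexin (-0.65 ± 0.12), and SYVN1, the ubiquitin ligase of the degradation route (-1.15 ± 0.26). The chaperone calreticulin, CALR, had an mRNA difference of -1.42, a footprint difference of -1.46 and a TE difference of -0.04. Of 47 translocon, signal recognition and vesicle coat genes, 5 were lower (10.6%, against 1.75% of all genes). Another 2, SRPRA and SEC13, were higher (4.26%, against 0.869%). Under each of the 4 other scalings 8 were lower and 0 higher. SEC62 (-0.76) and SEC63 (-0.92), which help push proteins through the translocon, the oligosaccharyltransferase subunit STT3B (-0.90) and the translocon-associated SSR2 (-0.65) were lower. SRPRA, the receptor for the signal recognition particle, was higher (0.74 ± 0.19, edgeR adjusted p = 0.0448) with an mRNA difference of -1.22 and a footprint difference of -0.48. Its mRNA was at 49.3, 48.6 and 41.8 CPM after irradiation and at 78.9, 126 and 120.2 CPM after etoposide. It was called in 1 of the 12 fits that left out a library.

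Of 49 lysosomal genes, 5 were called lower (10.2%, against 1.75% of all genes) and 0 higher, with a median of -0.23. Besides MAN2B1 they included the acid glucosidase GAA (-0.93 ± 0.19), the mannosidase MANBA (-0.74 ± 0.16) and the cholesterol exporter NPC1 (-1.02 ± 0.23). The sterol-regulated transcription factor SREBF2 was lower too (-0.58 ± 0.14).

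Families of membrane and matrix proteins were also counted by symbol. They were picked after the values were seen and share members with the fixed lists, so their counts are descriptions and repeat some calls above. Solute carriers had 26 of 222 tested genes called lower (11.7%, against 1.75% of all genes). Of the 222, 1 was higher (0.45%, against 0.869%), and the median was -0.37. Outside the fixed lists these were 21 of 208 lower (10.1%) and 1 higher. Laminins had 4 of 11 lower (36.4%), of which 1 of 6 was outside the fixed lists. Semaphorins and plexins had 6 of 26 lower, ABC transporters 4 of 28, ADAM and ADAMTS proteases 3 of 25 and integrins 2 of 16, with no tested member in the fixed lists. Membrane proteins numbered TMEM had 2 of 171 lower (1.17%) and 1 higher (median -0.13), and 8 to 12 lower under the 4 other scalings. Of the 171, 123 lay below the median gene, and 30 were lower and 7 higher at an unadjusted p under 0.05. Over all genes tested, 10.99% were higher and 6.86% lower at that unadjusted threshold. Zinc finger proteins numbered ZNF had 0 of 462 called by edgeR and 1 by DESeq2 (median 0.14), with 36 higher (7.79%) and 7 lower (1.52%) unadjusted, both shares below those over all genes.

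Other surface proteins called lower included EGFR, the receptor for epidermal growth factor. Its footprints were at 43.4, 47.7 and 41.3 CPM after irradiation and at 142, 140.1 and 126 CPM after etoposide, and its TE difference was -0.98 ± 0.13 (edgeR adjusted p = 0.000336). NOTCH1 (-1.12 ± 0.28), the Hedgehog transducer SMO (-0.96 ± 0.24), the TGF-beta co-receptor TGFBR3 (-1.02 ± 0.24) and the lipoprotein receptor SCARB1 (-0.998 ± 0.23) were lower too, as was the ligand TGFB1 (-1.06 ± 0.24). Integrin chain ITGA3 (-0.92 ± 0.20) and 3 proteases of the cell surface or matrix, PAPPA (-1.03 ± 0.14), ADAMTS1 (-0.98 ± 0.15) and FAP (-1.01 ± 0.22), followed. EGFR, PAPPA and ADAMTS1 stayed called without each of the 12 libraries, and the others in 8 to 10 of the 12 fits.

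ATF4, the transcription factor of the integrated stress response, which is translated through upstream reading frames, was higher after irradiation. Its mRNA was at 570.3, 602 and 552 CPM after irradiation and at 488, 427 and 457 CPM after etoposide. Its footprints were at 280.2, 265 and 271 CPM and at 129.9, 142 and 154 CPM, with no overlap in either readout. TE differed by 0.61 ± 0.13 (edgeR adjusted p = 0.0117). This call was kept under all 4 other scalings and in 7 of the 12 fits without a library. Footprints were counted per gene and were not limited to coding sequence. Ribosomes on the upstream frames may therefore be part of this ratio and of those in the next paragraph, which do not measure the main reading frame alone.

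Of the 14 tested genes with such regulatory upstream frames, edgeR called ATF4 higher and SLC7A1, the cationic amino acid transporter, lower. SLC7A1 mRNA was at 32.1, 26.7 and 30.8 CPM after irradiation and at 25.9, 30.3 and 30.0 CPM after etoposide, while its footprints were at 16.4, 21.1 and 17.2 CPM and at 37.1, 47.7 and 34.6 CPM. TE differed by -1.21 ± 0.20 (edgeR adjusted p = 0.00133), in the opposite sense to ATF4. DDIT3, the stress factor CHOP, stood at 0.87 ± 0.25 and missed the threshold (edgeR adjusted p = 0.0695), while DESeq2 called it higher (adjusted p = 0.0491). PPP1R15A, the phosphatase subunit that reverses eIF2 phosphorylation (0.32, SE 0.17), and ATF5 (-0.02, SE 0.20) were not called.

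Of the 26 tested targets of ATF4, 0 were called higher by edgeR or DESeq2, with 4 higher at an unadjusted p under 0.05. Another 4 were called lower (15.4%, against 1.75% of all genes). The list median was 0.12. The 4 called lower were membrane carriers and a secreted hormone. They were the glutamine carriers SLC1A5 (-0.55 ± 0.13) and SLC38A2 (-0.60 ± 0.13), the cystine carrier SLC7A11 (-0.63 ± 0.14) and stanniocalcin STC2 (-0.58 ± 0.15). The tRNA synthetases, also made under ATF4, had 0 of 20 called by edgeR or DESeq2 and 1 at an unadjusted p under 0.05, with EPRS1 at -0.03 (SE 0.12).

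Clustered replication-dependent histones had 6 of 54 called higher (11.1%, against 0.869% of all genes) and 0 lower, with a median of 0.53, and 48 of the 54 lay above the median gene. H3C10 (ENSG00000278828, on chromosome 6) had mRNA at 10.3, 11.02 and 11.4 CPM after irradiation and 9.76, 10.9 and 12.7 CPM after etoposide. Its footprints were at 23.1, 25.0 and 28.3 CPM against 9.02, 7.92 and 9.83 CPM. TE differed by 1.54 ± 0.21 (edgeR adjusted p = 0.000336), the largest positive difference among the named genes, and stayed called without each library. H2BC21 (1.06 ± 0.21), H2AC6 (0.86 ± 0.14) and H4C8 (0.79 ± 0.12) were also higher, while the linker histone H1-2 stood at 0.60 (SE 0.19) and was not called. These differences are between the inducers and do not show a change from cycling cells. Members of this family have near-identical coding sequences, so short footprints cannot always be placed, and 4 of the 6 calls were kept under all 4 other scalings.

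Higher calls outside the histones varied in how they held under other scalings. HECW2, a ubiquitin ligase (1.14 ± 0.22), the NF-kappaB regulator IKBKG (1.11 ± 0.17), the RNA-binding protein UNK (0.92 ± 0.22), the phosphatase PPM1M (0.87 ± 0.20), the ribosomal protein homologue RPL7L1 (0.86 ± 0.18) and the spliceosome protein SNRPG (0.85 ± 0.19) were called under all 4 other scalings. HECW2 and IKBKG stayed called without each of the 12 libraries, RPL7L1 and SNRPG in 9 of those 12 fits, and UNK and PPM1M in 4. IKBKG footprints were at 51.6, 44.6 and 57.5 CPM after irradiation and at 30.6, 29.1 and 31.3 CPM after etoposide, and its mRNA at 9.18, 10.7 and 9.11 CPM and at 12.2, 12.6 and 12.1 CPM. A near-identical copy of IKBKG lies close to it in the genome, so its counts are uncertain. The death effector domain phosphoprotein PEA15 (0.85 ± 0.20) and the respiratory subunit COX8A (0.92 ± 0.23) were each called under 1 of the other scalings, and in 4 and 2 of the 12 fits. The actin-nucleating subunit ARPC4 (0.97 ± 0.26) was called under none and in 1 of the 12 fits, had 2.21 to 5.47 CPM of footprints, and overlaps a read-through gene.

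Mitochondrial lists lay slightly above the median gene. Nuclear-encoded oxidative phosphorylation subunits had 3 of 72 called higher (4.17%) and 0 lower, with a median of 0.28 and 61 of 72 above the median gene. They were NDUFA1 of complex I (0.60 ± 0.13), UQCR10 of complex III (0.59 ± 0.14) and COX8A. Mitochondrial ribosomal proteins had 2 of 76 higher (2.63%, against 0.869% of all genes), MRPL27 (0.60 ± 0.13) and MRPS7 (0.59 ± 0.15), with a median of 0.24. Of these 5 calls, NDUFA1 alone was kept under all 4 other scalings, and without a library it was called in 6 of 12 fits and the others in 1 to 3.

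The 13 proteins encoded in the mitochondrial genome had 0 TE calls in the edgeR fit and 2 at an unadjusted p under 0.05, at a median of 0.34, beside a median mRNA difference of -1.88. MT-CO1, a core subunit of cytochrome oxidase, had mRNA at 772, 497 and 523 CPM after irradiation and at 1662, 2278 and 2166 CPM after etoposide. Its footprints were at 121, 91.4 and 93.4 CPM and at 184, 271 and 232 CPM. Its TE difference was 0.61 (SE 0.28, edgeR adjusted p = 0.28), and that of MT-CO3 0.71 (SE 0.41). DESeq2 called 1 member of the 13 higher. How well footprints from these cycloheximide lysates capture ribosomes inside mitochondria was not tested, so these ratios are uncertain as measures of TE.

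Of 30 p53 target genes, 3 were called higher (10.0%, against 0.869% of all genes) and 0 lower. They were the apoptosis effector BAX (0.59 ± 0.15), TP53I3 (0.55 ± 0.14) and TRIAP1 (0.61 ± 0.16). Under the other scalings BAX was called in none and the other 2 in 1 each, the fits without a library called each of the 3 in 1 or 2 of 12, and 1 or 2 different members were called lower instead. The cell cycle inhibitor CDKN1A had mRNA at 2325, 2709 and 2292 CPM after irradiation and at 2816, 3155 and 3093 CPM after etoposide, and footprints at 2102, 2175 and 2462 CPM and at 2806, 2634 and 2712 CPM. Its TE difference was 0.03 (SE 0.14). CDKN2A, which encodes the inhibitor p16, stood at -0.32 (SE 0.18) and the nuclear lamin LMNB1 at 0.00 (SE 0.24). The antioxidant enzymes SOD1 (0.50 ± 0.13) and PRDX1 (0.53 ± 0.14) were called higher, each under 1 of the 4 other scalings. Leaving out any 1 library ended the PRDX1 call, and SOD1 was called in 1 of the 12 such fits. OAZ2, an antizyme that curbs polyamine synthesis, was higher by 0.70 ± 0.18 with a call under none of the 4 and in 2 of the 12 fits, beside the polyamine enzymes ODC1 (0.12, SE 0.15) and AMD1 (-0.17, SE 0.18).

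The mRNAs under mTOR control begin at a C followed by pyrimidines, the terminal oligopyrimidine tract. The windows below run from 15 bases before to 15 bases after the first RefSeq base of 4 such genes and of VCAN for comparison (GRCh38.p14, 5′ to 3′ on the gene's strand), with the tract in capitals. They show which letters the following counts refer to.
EEF1A1 (chr6:73521018-73521047, minus strand): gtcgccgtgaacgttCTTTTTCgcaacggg
EEF2 (chr19:3985449-3985478, minus strand): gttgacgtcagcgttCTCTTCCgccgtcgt
RPLP0 (chr12:120201097-120201126, minus strand): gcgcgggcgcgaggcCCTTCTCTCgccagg
RPL13A (chr19:49487593-49487622, plus strand): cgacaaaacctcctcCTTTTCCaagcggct
VCAN (chr5:83471729-83471758, plus strand): tgggtgtcacaacccgcatttgaacttgca

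A tract of at least 5 pyrimidines that opens with C at the annotated start, on the gene's own strand, was in 1429 of 35116 RefSeq windows (4.07%). Among 10363 tested genes with a window it was in 777 (7.498%), and among the cytosolic ribosomal proteins with one in 45 of 61. The 777 genes had a median TE difference of 0.07, with 6 called higher and 22 lower. The 9586 genes with no such letters at an annotated start had a median of 0.10, with 91 higher and 145 lower. The share called lower was thus larger with the tract and the share called higher smaller, and neither gap was tested. A match is a description of letters, and starts used in these cells may differ from the annotated ones.

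Of 77 cytosolic ribosomal proteins tested, 1 was called, lower (1.30%, against 1.75% of all genes), with a list median of 0.01. That was RPL7 (-0.70 ± 0.16, edgeR adjusted p = 0.0199), whose mRNA was at 1252 to 1682 CPM and footprints at 14.1 to 21.3 CPM. Ribosomal protein genes have many processed pseudogenes, and short footprints from them may not be placed uniquely, so these ratios are uncertain. The other mRNAs of the class had 0 of 19 called by edgeR, 1 lower at an unadjusted p under 0.05 and 1 called lower by DESeq2. Their median was -0.17, and 16 of 19 lay below the median gene. The elongation factors EEF2 (-0.23, SE 0.14) and EEF1A1 (-0.17, SE 0.14), the stalk protein RPLP0 (-0.11, SE 0.17), RPL13A (-0.08, SE 0.17) and vimentin, VIM (-0.24, SE 0.14), were not called. EEF2 mRNA was at 4009 to 4775 CPM after irradiation and 3278 to 3754 CPM after etoposide, and its footprints at 2994 to 3429.7 CPM and 2785 to 3049 CPM, which overlap. Of 34 mTOR pathway genes, 1 was lower (2.94%, against 1.75% of all genes), the lysosomal amino acid sensor SLC38A9 (-0.80 ± 0.19). The cap-binding repressor EIF4EBP1 stood at 0.07 (SE 0.20).

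Proteasome subunits and assembly factors had 0 of 44 called by edgeR or DESeq2 and a median of 0.25, with 16 higher (36.4%) after irradiation at an unadjusted p under 0.05, against 10.99% of all genes. Initiation and elongation factors without the tract had 0 of 40 called by either tool (median 0.12, 7 higher, 17.5%, and 0 lower at an unadjusted p under 0.05). Proliferation genes (0 of 31, 3 higher, 9.68%, and 1 lower unadjusted) and interferon-stimulated genes (0 of 32, 3 higher, 9.38%, and 0 lower unadjusted) had no call by either tool. Contractile genes had 0 of 38 called by edgeR, with 7 higher (18.4%) and 1 lower unadjusted, and 1 called by DESeq2. The ferritin chain FTH1 stood at -0.06 (SE 0.33), in an iron list with 0 of 10 called by edgeR, 1 lower unadjusted and 1 called by DESeq2. With 2.62% of all genes called, a count of 0 in lists of this size is near the background.

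Cycling and quiescent libraries, which took no part in choosing the genes, were set beside the 2 inducers. TE was expressed relative to the median gene of each state, from mean log2 CPM of footprints and mRNA. The 221 lower genes had a median of 0.03 in cycling cells, -0.45 in quiescent cells, -0.67 after irradiation and 0.15 after etoposide. In 210 of the 221 (95.02%) the quiescent value was below the cycling one, against 45.0% of all 12653 genes, and the median gap was -0.52 against 0.03. The quiescent and cycling values took no part in the choice of genes, while those of both inducers did. That count rested largely on 1 library: without quiescent footprint replicate 1 it was 149 of 221 (67.4%) against 50.2% of all genes, with a median gap of -0.14. Without each other cycling or quiescent library in turn, a check added after the data were seen, it was 195 to 219. An SD of relative TE was taken from the replicate variances of log2 footprints and log2 mRNA added together. Its median over the 221 genes was 0.85 in quiescent cells and 0.22 in cycling cells, against 0.32 and 0.21 over all genes. The median gap was smaller than that quiescent SD, which is a spread of single libraries and not an error of the group mean. Without quiescent footprint replicate 1 the quiescent SD of the 221 genes was 0.44. Quiescent RNA-seq replicate 3 also stood apart, with 40.6% of reads unmapped, and without it 195 of 221 (88.2%) lay below. After irradiation 174 of the 221 lay below the quiescent value as well, against 5753 of all 12653 genes. The irradiated values took part in choosing the 221 genes, and the quiescent mean includes footprint replicate 1, so this count is a description only. The 23 genes called higher under every scaling had medians of 0.65 in cycling, 0.81 in quiescent, 1.23 in irradiated and -0.18 in etoposide cells, and the quiescent value was below the cycling one for 7 of 23 (30.4%), and for 3 to 11 when 1 cycling or quiescent library was left out.

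**Figure D5:**
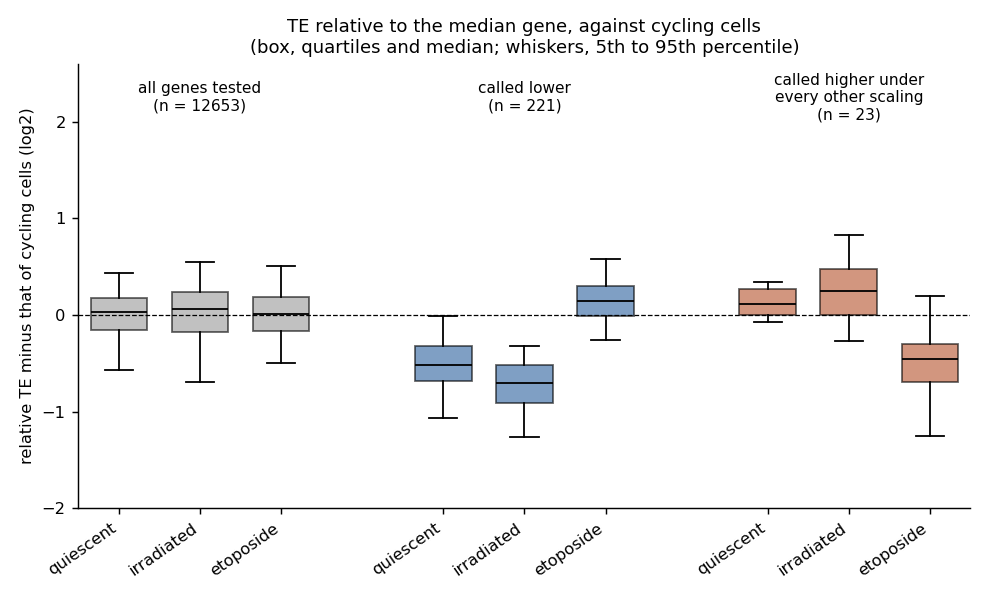
TE relative to the median gene, as the difference from cycling cells (log2; boxes, quartiles and median over genes; whiskers, 5th to 95th percentile), for all 12653 genes, the 221 called lower and the 23 called higher under every other scaling. The 221 genes lie at a median of -0.52 in quiescent (-0.14 without quiescent footprint replicate 1), -0.70 in irradiated and 0.15 in etoposide cells against cycling; the 3 differences share the cycling libraries.

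For the chaperone, lysosomal, secretory phenotype, matrix glycoprotein and collagen lists the quiescent median against cycling changed sign without quiescent footprint replicate 1. That of MHC class I antigen presentation did so too, from -0.29 with all libraries to 0.037 without it. Some lists near 0 also changed sign, such as translocon and vesicle coat genes (-0.047 and 0.0046). Mitochondrially encoded genes moved from 0.56 to 1.09 with no change of sign. Histones stood at 0.081 with all libraries and 0.085 without it. The 2 inducers are therefore given against cycling cells alone. Endoplasmic reticulum chaperones stood at a median of -0.28 against cycling in quiescent cells with all libraries and at 0.15 without quiescent footprint replicate 1, and matrix glycoproteins at -0.14 and 0.32. After irradiation the chaperones differed from cycling cells by a median of -0.36, and after etoposide by -0.03. Lysosomal genes stood at -0.30 and -0.04 in that order, secretory phenotype genes at -0.22 and 0.12, matrix glycoproteins at -0.37 and 0.05 and collagens at -0.24 and 0.13. Histones stood at 0.12 and -0.26. These differences share the cycling libraries, of which 2 were RNA-seq and 3 Ribo-seq, and they were not tested. The cycling baseline itself moved with its RNA-seq libraries. The quiescent minus cycling median of histones was 0.081 with all libraries, -0.12 without cycling RNA-seq replicate 1 and 0.27 without replicate 2. For collagens it was -0.0074, 0.20 and -0.20 in that order. Differences from cycling cells of the sizes given here are therefore uncertain.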

How the data were processed

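The authors deposited raw read counts per gene for each library, in the layout of STAR's gene counts, with 1 column for both strands and 1 for each strand. STAR 2.7.10b, DESeq2 1.36.0, bcl2fastq and the build hg38 are named in the submitters' processing notes, with no role. Annotation, trimming and the treatment of footprint lengths are not given in the sources used here. Per the labels' protocols, lysates made with cycloheximide were divided, with total RNA taken for RNA-seq and footprints made by RNase I, a sucrose cushion and a gel, and rRNA was depleted.

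Ribo-seq counts were taken from the forward strand and RNA-seq counts from the reverse strand, since the opposite strand held 3.71 to 7.14% of the reads. Rows that name no gene stayed out of all totals. Footprints were not limited to coding sequence. Unmapped reads were 20.0 to 34.7% and multiply mapped reads 13.3 to 27.1% of a library. The 2 library types used gene lists of 62703 (RNA-seq) and 60664 (Ribo-seq) identifiers with 60534 in common. Of these, 40560 matched a RefSeq entry by symbol, older symbol or synonym, and 19320 were protein-coding there. The filter was edgeR's filterByExpr by group.

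The test was edgeR 4.0.16 (R 4.3.3) with TMM scaling over the 12 libraries, robust quasi-likelihood fits and 1 coefficient a group. Its contrast was the footprint difference minus the mRNA difference, irradiated minus etoposide, two-sided. There were 8 residual degrees of freedom. The script was tested on simulated counts. Standard errors are those of the contrast at the fitted means, scaled by the moderated quasi-likelihood dispersion. CPM values use the TMM library sizes. The labels number the replicates and do not say that they came from separate cultures, so p-values measure the spread between these libraries, which may be technical. The chi-square of each replicate pair per degree of freedom was 1.86 to 51.2, above sampling noise.

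Alternatives were DESeq2 1.42.0, other scalings, other filters, both strands, all 27 libraries, a replicate block and leaving out each library. The comparison and the gene lists were chosen with earlier results of these data known. Named genes included the 12 largest positive and 12 largest negative TE differences among called genes with at least 2 CPM in each group. Those genes also had to keep their sign without each library. Up to 4 called members of each list and its 2 members with the highest mRNA level (given here for some lists only) were added. So was a list of senescence and stress genes. BGN, SRPRA, SEC13, EGFR, TGFB1, NOTCH1, SMO, TGFBR3, PAPPA, ADAMTS1, ITGA3, FAP, SCARB1 and the symbol families were picked after their values were seen. Relative TE across states used log2 of CPM plus 0.5, with no test. Sequence windows and positions are RefSeq's for GRCh38.p14. Some genes that the rule selects are not reported here.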

Additional observations from a re-analysis of the deposited data

How the results depend on the processing

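Totals of genes called were 331 as reported, 584 with counts on both strands, 543 with a replicate block, and 0 both with all 27 libraries in the fit and with the cycling and quiescent libraries added to it under TMM within each library type, a setting chosen after seeing the data (920 genes at an unadjusted p under 0.05 there). Genes higher after irradiation, 110 as reported, numbered 35 with DESeq2 size factors, 23 with TMM within each library type, 32 when median-centred, 195 with no filter, 11 with a minimum of 50 counts, 20 on both strands, 212 with the block, and 0 and 0 in the 2 larger fits. Genes lower after irradiation, 221 as reported, numbered 406 with DESeq2, 429 with TMM within each type, 364 when median-centred, 434 with the minimum of 50 counts, 564 on both strands, 331 with the block, and 0 and 0 in the larger fits. The cause of these shifts was not tested. The median gene moved from 0.10 to 0.01 with DESeq2, to -0.04 with TMM within type, to -0.08 with the minimum of 50 counts and to -0.09 on both strands.

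Without 1 library the total ran from 115 (without irradiated footprint replicate 1) to 715 (without etoposide RNA-seq replicate 1), the higher genes from 7 to 78 and the lower genes from 95 to 660. Totals moved over 1.5 times also without irradiated RNA-seq replicate 2 (504), etoposide RNA-seq replicates 2 (565) and 3 (583), irradiated footprint replicate 3 (175) and etoposide footprint replicates 1 (210) and 2 (131). The median gene lay between -0.09 and -0.08 without any RNA-seq library and between 0.08 and 0.10 without any footprint library. Of the 221 lower genes, 71 stayed called in all 12 such fits, and of the 110 higher genes 6.

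The replicate block kept 220 of the 221 lower and 108 of the 110 higher calls. Among the genes named it lost PRKCSH (edgeR adjusted p = 0.064) and added IL6 (0.00069), MT-CO1 (0.0069), MT-CO3 (0.021), DDIT3 (0.027) and THBS1 (0.048). RNA-seq and footprint libraries of 1 number had correlated deviations from their group means of 0.06, 0.03 and -0.09 for irradiated replicates 1 to 3 and 0.14, 0.58 and 0.24 for etoposide replicates, over 6848 genes. Each etoposide library correlated best with its own number, and the irradiated ones did not all do so, so the numbers were not taken to pair the libraries.

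Among the genes named, the TE difference of 5 uncalled genes near 0 changed sign with the setting. CDKN1A stood at -0.051 with DESeq2 and -0.051 with its size factors, -0.10 with TMM within type, -0.17 with the 50-count minimum, -0.15 on both strands, -0.065 when median-centred and -0.10 with the added libraries. EIF4EBP1 stood at -0.0097, -0.016, -0.066, -0.13, -0.11, -0.029 and -0.055 in the same order. ODC1 stood at -0.019 with TMM within type, -0.088 with the minimum, -0.065 on both strands and -0.016 with the added libraries. LMNB1 stood at 0.0052 with no filter and 0.0046 with the block, and ADH1B at -0.018 on both strands. Leaving out a library spanned 0 for ADH1B (-0.33 to 0.74), ATF5 (-0.30 to 0.10), C3 (-0.81 to 0.015), CALR (-0.32 to 0.026), CDKN1A (-0.19 to 0.075), EIF4EBP1 (-0.18 to 0.24), EPRS1 (-0.23 to 0.0079), FMO2 (-0.43 to 0.062), FTH1 (-0.57 to 0.031), LMNB1 (-0.23 to 0.14), MMP3 (-0.93 to 0.32), ODC1 (-0.14 to 0.19), RPL13A (-0.32 to 0.038) and RPLP0 (-0.34 to 0.036). The irradiated footprint libraries were the shallowest, and the part of depth in the errors of single genes was not tested.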
